A study of Mus musculus with 6 samples.

Results

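The large (60S) ribosomal subunit of mouse hematopoietic stem cells (HSCs) was examined through the RNA of its protein genes. The genes were taken by symbol, as every row named Rpl or Rplp with a number and an optional short suffix, which gave 54 of the 21878 rows of each library. The study sorted HSCs from the bone marrow (BM) of wild-type C57BL/6 mice as CD34- Flk2- Lineage- Sca1+ c-Kit+ cells. Libraries from vehicle-treated control mice (n = 3) were compared with libraries from mice given recombinant mouse IGF1, a growth factor, as a subcutaneous injection (n = 3). The age of the mice is not in the labels, the extraction label calls the treated mice IR where the treatment label says IGF-1, and the treatment label was used. The labels do not say that replicates came from separate animals, so p-values measure only the spread between these libraries. Poly(A) RNA was sequenced, and each value is in FPKM (fragments counted on a gene, divided by gene length and by library depth).

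The ribosome joins amino acids in its large subunit and reads the message in its small (40S) subunit. The large subunit is built in the nucleolus from ribosomal RNA, most of the proteins described here and many assembly factors that leave before it is used. In vertebrates, messages for ribosomal proteins usually begin with a C followed by a run of pyrimidines, the terminal oligopyrimidine (TOP) tract, through which their translation responds to growth signals that act by mTORC1. HSCs are known for a low rate of protein synthesis compared with the progenitors that they form.

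The libraries held 11206746 to 15973581 reads on listed genes. The library labelled control replicate 2 stood apart from the other controls across the whole transcriptome. The chi-square of read counts per gene was 229 and 231 between control replicate 2 and the other 2 controls, but 24.6 to 28.0 between control replicate 2 and the IGF1 libraries. Control replicates 1 and 3 differed from each other by 1.52 per gene, and pairs of IGF1 libraries by 1.69 to 1.89. The files do not tell what sets this library apart or whether its label is right, so each control value over 3 libraries includes a library that may not represent untreated HSCs. Results are therefore given with all libraries and without control replicate 2. Markers of other cells moved with the groups in part: the summed level of 8 B-lineage markers was 111 to 423 FPKM in controls and 390.5 to 406 FPKM with IGF1, and 5 of the 8 had at least 1 FPKM in every library. The sum of 10 HSC markers was 449.8 to 705 FPKM in controls and 448 to 464 FPKM with IGF1. Kit, which encodes a receptor used in the sort, had 105, 31.4 and 104 FPKM in controls and 24.2 to 24.6 FPKM with IGF1. Cd34 RNA, whose surface product the sort excluded, had 640.0, 265 and 634 FPKM in controls and 230.2 to 238 FPKM with IGF1. Flt3 (Flk2), whose product was excluded as well, had 117, 172 and 117 FPKM in controls and 183 to 188 FPKM with IGF1. The sum over 6 T and NK cell markers, nearly all of it Nkg7, was 360.1 to 779 FPKM in controls and 769.8 to 789.96 FPKM with IGF1, with Cd3e at 0.206 FPKM or less. Sums over 5 megakaryocyte, 7 erythroid and 10 myeloid markers were 51.8 to 74.5, 36.1 to 103 and 2279.6 to 2450.3 FPKM in controls, and 93.1 to 104, 48.2 to 55.3 and 2453 to 2459 FPKM with IGF1. Of the megakaryocyte markers, Pf4 had a log2 fold change of 1.54, while Itga2b had −0.48 with overlap between the groups. The near-constant myeloid sum was mostly Mpo (1613 to 1705 FPKM), and its other members moved both ways. The neutrophil granule gene Ngp had 79.0, 11.5 and 78.2 FPKM in controls and 2.22 to 3.73 FPKM with IGF1, with lower values with IGF1 also for Camp, S100a8 and S100a9 (log2 fold changes −2.32, −1.90 and −2.25). Elane, of early myeloid cells, had 92.8, 576 and 92.4 FPKM in controls and 692 to 709 FPKM with IGF1. No list had a marker at 0 in every library, and the part of these markers in the results on 60S genes was not tested.

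Of the 54 genes, 52 had at least 1 FPKM in at least 3 libraries and entered a test over 10449 genes. Rpl10l and Rpl39l did not. In 51 of the 52, every IGF1 library lay above every control library, and in Rpl7l1 every IGF1 library lay below, so that no tested 60S gene overlapped between the groups. The 51 include Rpl3l, which reached 1 FPKM only in the IGF1 libraries, so its place above was built into the filter. Among all genes tested, 21.9% lay above without overlap and 37.4% lay below. The median log2 fold change (IGF1 over control, on log2(FPKM + 1)) was 1.504 for the 52 genes and −0.18 for all genes. Rpl7l1 was the only gene below 0 under every fit but quantile normalization, which left 48 of the 52 above 0 (Rpl3, Rpl4 and Rplp0 turned slightly negative). Because these are bulk samples, fewer cells of a type and less RNA per cell cannot be told apart.

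Only 3 of the 52 genes were called higher, with fold over 2 and adjusted p under 0.05 in limma, against 1.98% of all genes, and none was called lower, against 4.63% of all genes. The called genes were Rpl36, Rpl37a and Rpl32l, and with length and GC trends removed from every library none of these 3 was called. At an unadjusted p under 0.05 there were 51 of the 52, of which 50 (Rpl3l among them) were higher and 1 (Rpl7l1) was lower, against 53.4% of all genes. Without control replicate 2, 49 were called higher against 12.3% of all genes, none was called lower against 20.6%, and the median log2 fold change became 2.07. The exceptions then were Rpl3l, Rpl4 and Rpl7l1. Leaving out any other single library left 0 calls among the 60S genes and 0 among all genes by limma, with 11 to 20 of the 52 genes at an unadjusted p under 0.05. Voom on recovered reads called 4 with all libraries, against 3.66% of all genes.

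**Figure D1:**
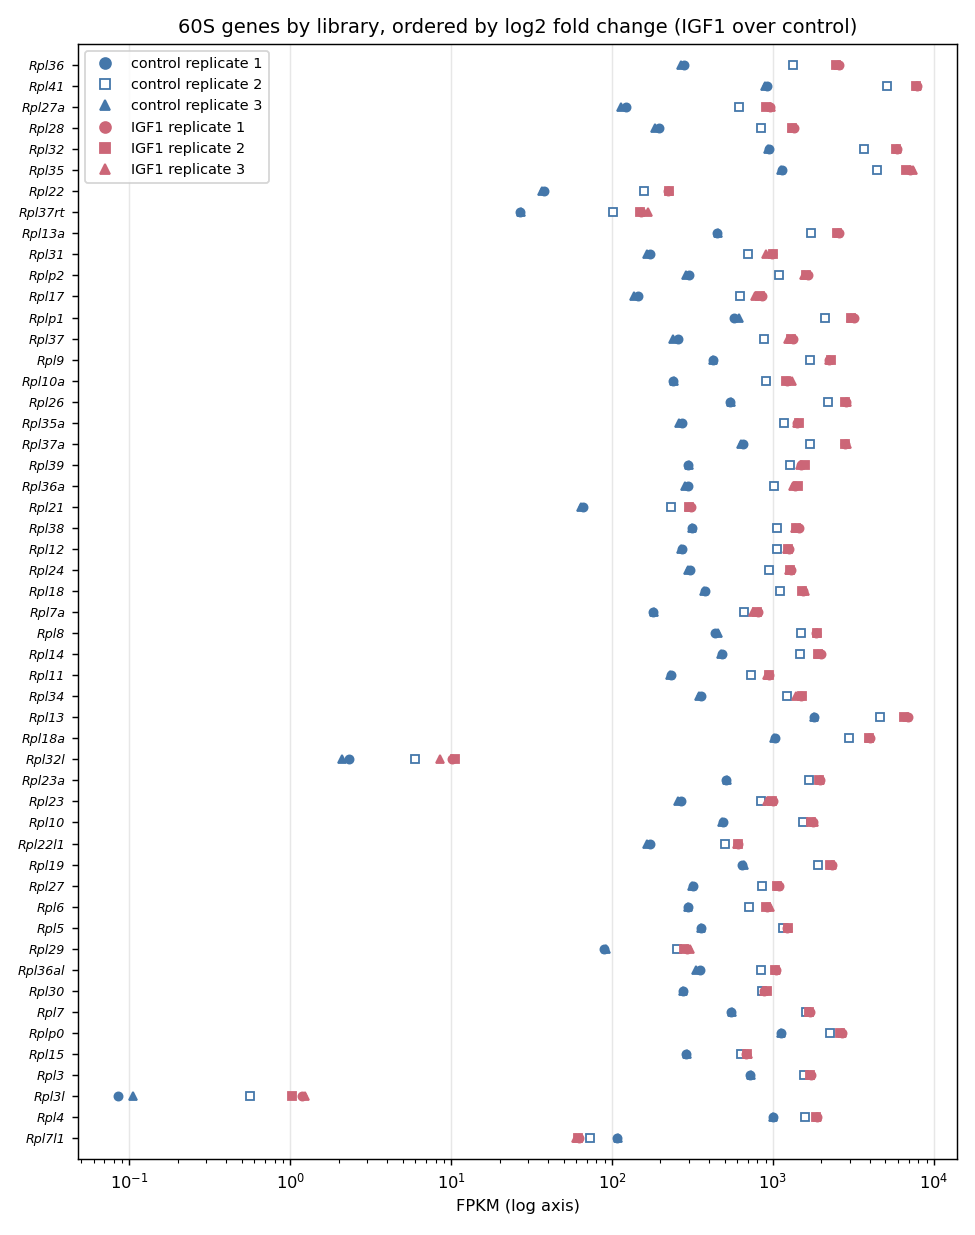
FPKM of the 52 tested 60S genes in each library (log axis), with genes ordered from the highest log2 fold change at the top to the lowest at the bottom. Blue symbols are control libraries, the open square being control replicate 2, and red symbols are IGF1 libraries. In all 52 genes the open square falls inside the gap that separates the remaining controls from IGF1, and only Rpl7l1, at the bottom, has its IGF1 libraries on the left.

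For each of the 52 genes, control replicate 2 fell inside the gap separating control replicates 1 and 3 from IGF1. On the log2 scale it had covered a median of 0.81 of the distance to the IGF1 mean, with a range from 0.53 in Rpl3l to 0.96 in Rpl30. Rpl3l passed the filter only through the IGF1 libraries. Against the mean of control replicates 1 and 3, control replicate 2 was a median 3.35-fold higher and the IGF1 libraries were a median 4.38-fold higher. The IGF1 libraries were close to one another. The median coefficient of variation over the 3 IGF1 libraries was 2.03%, and it was under 5% in 47 of the 52 genes. Of the 52 adjusted p-values, 48 lay between 0.05 and 0.1.

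The start regions of some of these genes are shown to place the TOP tract beside the size of the difference. RefSeq start windows (GRCm38.p6) were found for 42 of the 54 genes, with 49 annotated starts. A tract was searched on the transcribed strand as a C followed by at least 4 pyrimidines, with the C within 10 bases of the annotated start. It was found at 27 of the 49 starts (55.1%), compared with 30.7% of the 32851 starts in the whole table. Among 40S genes in the table, 18 of 27 had at least 1 start with it. The windows run from 40 bases before the start through the first 20 bases of the message, written 5′ to 3′ in the direction of transcription, with the tract in capitals. The first 4 are the genes with the largest log2 fold changes among those with a single annotated start and at least 10 FPKM on average, and the last 4 are those with the smallest.
Rpl41 (chr10:128549149-128549208, minus strand): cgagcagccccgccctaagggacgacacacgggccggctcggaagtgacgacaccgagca
Rpl27a (chr7:109519155-109519214, plus strand): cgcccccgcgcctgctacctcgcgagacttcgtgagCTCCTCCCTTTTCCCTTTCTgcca
Rpl28 (chr7:4792925-4792984, plus strand): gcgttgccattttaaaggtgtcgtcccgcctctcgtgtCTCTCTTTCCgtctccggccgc
Rpl35 (chr2:39005112-39005171, minus strand): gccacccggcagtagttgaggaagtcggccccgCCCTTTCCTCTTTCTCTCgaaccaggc
Rplp0 (chr5:115559427-115559486, plus strand): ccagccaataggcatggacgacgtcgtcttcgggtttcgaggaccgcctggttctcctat
Rpl15 (chr14:18270967-18271026, minus strand): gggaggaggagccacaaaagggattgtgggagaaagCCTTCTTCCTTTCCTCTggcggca
Rpl4 (chr9:64173347-64173406, plus strand): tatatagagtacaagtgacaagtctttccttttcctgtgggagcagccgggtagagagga
Rpl7l1 (chr17:46782637-46782696, minus strand): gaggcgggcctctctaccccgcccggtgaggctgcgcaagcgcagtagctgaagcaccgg
The tract occurred in both sets. It was 20 bases long in Rpl27a, 10 in Rpl28, 18 in Rpl35 and 17 in Rpl15. A missing tract says only that these letters are not within reach of the annotated start: Rpl4 has a pyrimidine run further upstream in its window. Among the tested genes with a start in the table, the 23 with a tract had a median log2 fold change of 1.56 (range 0.80, in Rpl3l, to 2.20). The 17 without had a median of 1.45 (range −0.63 to 2.28). The ranges overlapped almost entirely.

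Rpl36 (chr17:56613416-56614243, GRCm38), a protein of the large subunit, showed the largest log2 fold change of the 60S genes in limma on all libraries. This holds for log2(FPKM + 1) with no further scaling or correction. Controls held 279, 1333 and 268 FPKM (replicates 1, 2 and 3) against 2561, 2458 and 2541 FPKM with IGF1. Control replicate 2 was thus far above the other controls and still below the lowest IGF1 library. The log2 fold change was 2.44 ± 0.64 (SE; limma adjusted p = 0.0483), and 3.20 ± 0.03 without control replicate 2. With length and GC trends removed it was 0.85, below the 60S median of 1.06, and Rpl35a then led with 2.34. Rpl37a (chr1:72711290-72713813), a zinc-binding protein of the subunit, had 649, 1695 and 633 FPKM in controls and 2809, 2802 and 2888 FPKM with IGF1. Its log2 fold change of 1.67 ± 0.43 (SE; limma adjusted p = 0.0466) was smaller than that of 17 tested genes that did not pass, and its control replicate 2 lay closer to the other controls than in most. With length and GC trends removed, Rpl37a had 0.57 and Rpl32l 0.16. Rpl32l (chr10:20208490-20208888) is annotated as a processed pseudogene and is described below with its parent.

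The next largest differences were in Rpl41, Rpl27a, Rpl28 and Rpl32, none of which passed. Rpl41 encodes the smallest protein of the ribosome, which sits at the interface of the subunits. It had 924, 5114 and 894 FPKM in controls and 7877, 7779 and 7909 FPKM with IGF1, the highest levels of any 60S gene in the IGF1 libraries. Its log2 fold change was 2.28 ± 0.73 (SE; limma adjusted p = 0.0606). Rpl27a had 122, 616 and 114 FPKM in controls and 955, 903 and 969.9 FPKM with IGF1 (log2 fold change 2.20 ± 0.66). Rpl28 went from 197, 839.9 and 184 FPKM to 1355, 1313 and 1308 FPKM (2.08 ± 0.60). In all 3 genes control replicate 2 lay nearer to the IGF1 libraries than to the other controls on the log2 scale. Rpl32 had 939, 3694 and 929.7 FPKM in controls and 5909, 5796 and 5893 FPKM with IGF1 (1.99 ± 0.59).

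At the other end, apart from Rpl7l1 and Rpl3l, were Rpl4, Rpl3, Rpl15 and Rplp0. Rpl4, whose protein reaches into the exit tunnel, had 998, 1579 and 996 FPKM in controls and 1870.1, 1845 and 1871 FPKM with IGF1. Its log2 fold change was 0.68 ± 0.26 (SE; limma adjusted p = 0.0802). Rpl3, a protein near the catalytic centre, had 723, 1552 and 735 FPKM in controls and 1712, 1707 and 1703 FPKM with IGF1 (0.86 ± 0.34). Rpl15 had 290.0, 635 and 294 FPKM in controls and 683, 692 and 697 FPKM with IGF1 (0.87 ± 0.33). Rplp0 and Rpl4 ranked among the 5 highest 60S genes in control replicates 1 and 3. In none of the 4 genes did the groups overlap, as in all 52 tested 60S genes, beside 21.9% of all genes above without overlap and 37.4% below.

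By place in the subunit, the 5 genes of the stalks all lay above without overlap, beside 21.9% of all genes. Their median log2 fold change was 1.73. The stalks are the mobile arms that recruit translation factors and guide tRNA out. Rplp1 and Rplp2, the acidic proteins of the P stalk, had log2 fold changes of 1.77 ± 0.53 and 1.82 ± 0.54 (SE). Rplp0, on which they are anchored, had 1121, 2278 and 1128 FPKM in controls and 2681, 2624 and 2675 FPKM with IGF1, a log2 fold change of 0.90 ± 0.34. The fold changes of these 3 partners were unequal, though the difference between them was not tested, and in every control Rplp0 exceeded Rplp1, whereas with IGF1 Rplp1 had 3178, 3048 and 3052 FPKM and exceeded Rplp0. Rpl12, at the base of that stalk, had 1.53 ± 0.55, and Rpl10a, the protein of the L1 stalk, had 1.73 ± 0.54. None of the 5 passed with all libraries, beside 1.98% of all genes called higher. Without control replicate 2, all 5 were called higher, beside 12.3% of all genes.

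Rpl5 and Rpl11 carry the 5S ribosomal RNA into the subunit and, when free, bind Mdm2 and so tie ribosome assembly to p53. Rpl5 had 359, 1159 and 359.7 FPKM in controls and 1214, 1235 and 1245 FPKM with IGF1. Control replicate 2 was just below the lowest IGF1 library. Rpl11 had 231, 726 and 228 FPKM in controls and 949, 946 and 913 FPKM with IGF1. Their log2 fold changes were 1.21 ± 0.48 and 1.47 ± 0.47 (SE), and the difference between them was not tested.

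The 5 genes at the catalytic centre and the tRNA path had a median log2 fold change of 1.31. Rpl8 had 439, 1489 and 458 FPKM in controls and 1860.4, 1878 and 1875 FPKM with IGF1. Rpl10, which joins the subunit late and touches the tRNA site, had 486, 1538 and 485 FPKM in controls and 1786, 1717 and 1802 FPKM with IGF1. Rpl36a, near the exit site, had the highest fold change of the 5, 1.63 ± 0.51 (SE). Without control replicate 2, 4 of the 5 were called higher, beside 12.3% of all genes, and Rpl4 was not, its log2 fold change being 0.90.

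The 7 genes around the mouth of the exit tunnel, through which the new protein leaves, had a median log2 fold change of 1.71 (range 1.30 to 1.99). All 7 were called higher without control replicate 2, beside 12.3% of all genes. Rpl35 had 1133, 4414 and 1122 FPKM in controls and 7072, 6672 and 7395 FPKM with IGF1, and Rpl19, at the low end, had 642, 1914 and 663 FPKM and 2319, 2265 and 2315 FPKM. Of the 3 bridge proteins that touch the small subunit, Rpl24 had a log2 fold change of 1.53 ± 0.47 (SE), Rpl30 of 1.15 ± 0.46 and Rpl41 the value given above. The remaining 26 genes all lay above without overlap, beside 21.9% of all genes, with a median of 1.54 and a range from 0.87 to 2.44.

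**Figure D2:**
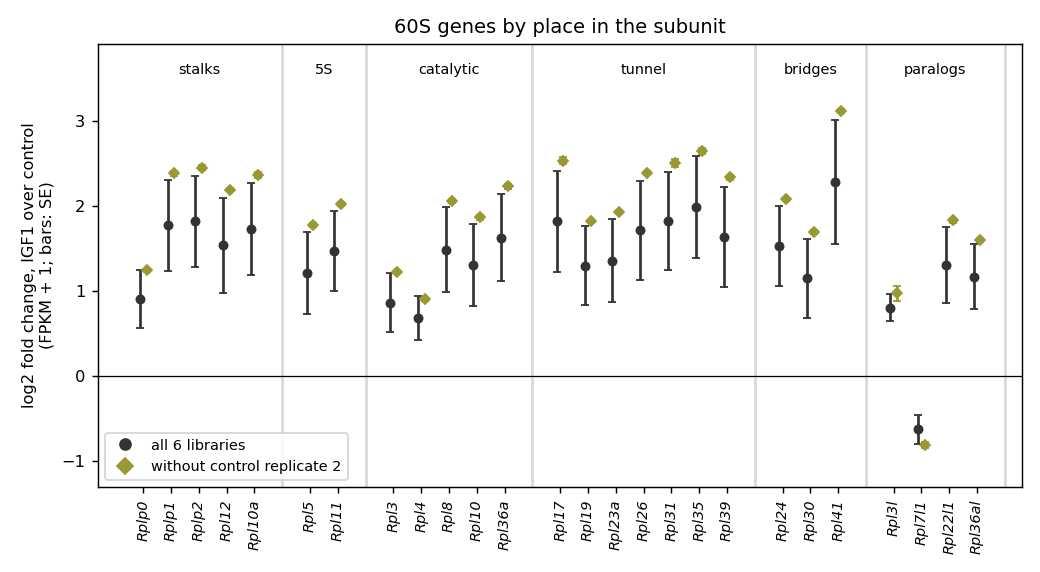
Log2 fold change of FPKM + 1, IGF1 over control, for the 60S genes by place in the subunit, with the standard error of the limma fit as bars. Dark circles use all 6 libraries and olive diamonds leave out control replicate 2, which moves every gene shown away from 0 and shortens every bar. Rpl7l1 is the only gene below 0.

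As a share of all summed FPKM, the 60S genes held 4.65%, 10.99% and 4.63% in control replicates 1, 2 and 3. They held 14.1%, 13.8% and 14.0% in the IGF1 libraries. The mean share was 6.75% ± 3.66 (SD, n = 3) in controls and 14.0% ± 0.114 (SD, n = 3) with IGF1, a difference of 7.22 percentage points that became 9.34 without control replicate 2. The shares did not overlap between the groups, and no test was run on them. Counted as reads, which give long genes more weight, the share was 1.87%, 5.61% and 1.87% in controls and 7.42%, 7.30% and 7.38% with IGF1. The small subunit moved in parallel. The 34 genes of the 40S proteins held 4.08%, 9.95% and 4.05% in controls and 12.2 to 12.3% with IGF1. The ratio of the 60S sum to the 40S sum was 1.14, 1.10 and 1.14 in controls and 1.14, 1.13 and 1.15 with IGF1, so that the ratio overlapped between the groups while both shares did not.

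**Figure D3:**
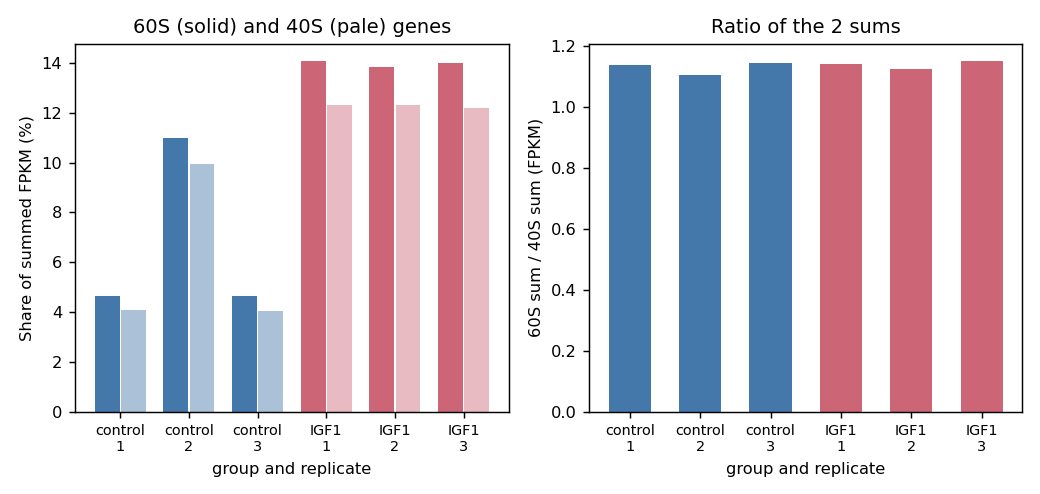
Left, share of summed FPKM (percent) held by the 60S genes (solid bars) and the 40S genes (pale bars) in each library. Right, ratio of the 60S sum to the 40S sum of FPKM in each library, with controls in blue and IGF1 in red. Both shares are between 4.05% and 4.65% in control replicates 1 and 3 and above 12% with IGF1, while the ratio stays between 1.10 and 1.15.

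Within the 60S sum the make-up was not the same in both groups. The share of 13 genes lay above in every IGF1 library, that of 23 lay below in every IGF1 library, and 18 overlapped. These shares add up to a whole, so the counts are not independent. Rpl41 held 4.26%, 7.33% and 4.14% of the 60S sum in controls and 8.23%, 8.29% and 8.31% with IGF1. It had the highest rank with IGF1 and also in control replicate 2. Rpl36 held 1.29%, 1.91% and 1.24% in controls and 2.62 to 2.68% with IGF1. Rpl4 held 4.602%, 2.26% and 4.61% in controls and 1.95 to 1.97% with IGF1, and Rplp0 5.17%, 3.27% and 5.22% in controls and 2.80 to 2.81% with IGF1. Rpl13 led in control replicates 1 and 3 with 8.24% and 8.38%, and its share overlapped between the groups, with 6.60% in control replicate 2 and 6.94 to 7.18% with IGF1.

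Several 60S genes have a paralog, a second gene for a related protein, which in some cases replaces its parent in certain tissues or states. Each paralog was compared with its parent as a log2 ratio of FPKM + 1 by a 2-sided exact permutation test of the difference in mean ratio. With 3 libraries against 3 the smallest p that this test allows is 0.1, and with 7 pairs adjusted by Benjamini-Hochberg no pair could pass. Ratios that do not overlap between the groups were not particular to paralogs. Among pairs that share only a number, Rpl23a to Rpl23 and Rpl37a to Rpl37 overlapped and the others did not. For example, the log2 ratio of Rpl27a to Rpl27 was higher by 0.91 with IGF1, and that of Rpl36a to Rpl36 was lower by 0.81.

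Rpl7l1 (chr17:46773907-46782672) was the only tested 60S gene with lower values in the IGF1 libraries. It had 107, 72.9 and 108 FPKM in controls and 62.2, 61.0 and 59.6 FPKM with IGF1. Its log2 fold change was −0.63 ± 0.17 (SE; limma adjusted p = 0.0520), and −0.81 ± 0.03 without control replicate 2, where it stayed under the fold threshold. Its parent Rpl7 had 549.7, 1599.8 and 555 FPKM in controls and 1697, 1683 and 1664 FPKM with IGF1. Rpl7l1 made up 16.3%, 4.36% and 16.3% of the pair in controls and 3.54%, 3.50% and 3.46% with IGF1. The log2 ratio was lower by 1.72 with IGF1 (exact permutation p = 0.1, adjusted p = 0.233), and by 2.42 without control replicate 2. The coding sequences of this pair were 46.8% identical, no closer than pairs of 60S genes that share only a number (46.1% to 49.1%), and their longest run of shared bases was 10. The pairing of Rpl7l1 with Rpl7 thus rests on the names. Whether the Rpl7l1 protein takes the place of Rpl7, or belongs to the finished subunit, was not tested.

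Rpl22 (chr4:152325742-152334071) and Rpl22l1 (chr3:28805436-28807424) can stand in for one another in the ribosome, and both lay above without overlap. Their coding sequences were 66.9% identical, with a longest shared run of 26 bases. Rpl22 had 37.8, 157 and 36.5 FPKM in controls and 224, 228 and 225 FPKM with IGF1 (log2 fold change 1.89 ± 0.57, SE). Rpl22l1 had 171, 502 and 166 FPKM in controls and 603, 606 and 595 FPKM with IGF1 (1.31 ± 0.44). The paralog was the more abundant of the pair per length in every library. Its part of the pair was 81.9%, 76.2% and 82.0% in controls and 72.9%, 72.7% and 72.5% with IGF1. The log2 ratio was lower by 0.58 with IGF1, without overlap (exact permutation p = 0.1, adjusted p = 0.233), and by 0.74 without control replicate 2.

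Rpl36a (chrX:134585654-134588062) and Rpl36al (chr12:69182731-69184083) had coding sequences that were 87.7% identical, and their longest run of shared bases was 24. Rpl36a had 297, 1021 and 285 FPKM in controls and 1362, 1421 and 1324 FPKM with IGF1. Rpl36al had 353, 841 and 335 FPKM in controls and 1047, 1033 and 1049 FPKM with IGF1. The autosomal copy was the higher of the pair in control replicates 1 and 3 (54.3% and 54.0% of the pair) and the lower in control replicate 2 (45.2%) and in the IGF1 libraries (42.1% to 44.2%). The log2 ratio was lower by 0.46 with IGF1 (exact permutation p = 0.1, adjusted p = 0.233).

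**Figure D4:**
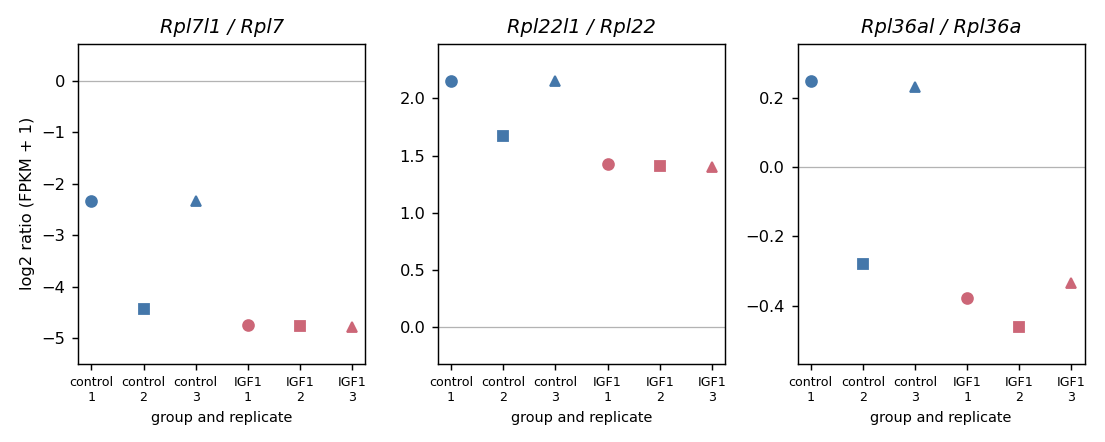
Log2 ratio of each paralog to its parent (FPKM + 1) in each library, for Rpl7l1 to Rpl7, Rpl22l1 to Rpl22 and Rpl36al to Rpl36a, with controls in blue and IGF1 in red. In all 3 pairs the IGF1 libraries lie below every control, with control replicate 2 near them. Each panel has its own vertical scale.

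The other paralogs were close to the limit of detection. Rpl3l, the form of Rpl3 known from heart and skeletal muscle, had 4, 19 and 5 reads in controls and 43, 34 and 47 with IGF1, or 0.0850, 0.561 and 0.106 FPKM and 1.18, 1.02 and 1.24 FPKM. It entered the test only through the IGF1 libraries, so a difference was built into its selection. The exact Poisson 95% interval was 0.338 to 0.876 FPKM for control replicate 2 and began at 0.708 FPKM in the lowest IGF1 library, counting error only. On FPKM + 1 its ratio to Rpl3 overlapped between the groups (exact permutation p = 0.9, adjusted p = 0.900), and the sign of that difference changed with the pseudocount. With no pseudocount, Rpl3l made up 0.012%, 0.036% and 0.014% of the pair in controls. It made up 0.069%, 0.060% and 0.073% with IGF1, without overlap. Rpl39l, known from the testis, had 2 to 7 reads in every library, and its difference between the groups was not detectable at this depth. Rpl10l, also a testis gene, was listed at 0 in all 6 libraries, where 3 reads would be the limit that a count of 0 allows.

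Rpl32l and Rpl37rt match the naming rule, but the annotation (GENCODE, GRCm38) calls them processed pseudogenes. Rpl32l had 2.32, 6.001 and 2.10 FPKM in controls and 10.1, 10.6 and 8.52 FPKM with IGF1 (log2 fold change 1.36 ± 0.33, SE; limma adjusted p = 0.0450). It shared 96.0% of its aligned bases with Rpl32, which was far more abundant, and its ratio to Rpl32 overlapped between the groups. Rpl37rt (chr5:115102923-115110268) was 99.7% identical to Rpl37 with a shared run of 256 bases. It had 26.8, 101 and 27.3 FPKM in controls and 151, 148 and 167 FPKM with IGF1, and its ratio to Rpl37 overlapped between the groups as well. Reads of such copies cannot be told apart from those of the parent with confidence, so both values are uncertain. The files list 2 further Rpl pseudogenes of the 189 in the annotation.

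Length went along with the size of the difference. The gene length behind each FPKM value, known up to a factor common to all genes, was a median of 789 bases for the 52 genes, and 4.12% of all tested genes were shorter than that. Where the reads of a gene share a whole divisor in all libraries, its length is also too short by that divisor. Across the 52 genes the log2 fold change correlated with log2 length (Pearson r −0.46, Spearman rho −0.36), as a description, since these genes share libraries and depth. Over all tested genes r was −0.28. Among the genes under 500 bases, the median log2 fold change was 1.67 for 7 60S genes and 1.26 for 103 genes of neither subunit. Between 500 and 1000 bases it was 1.48 for 25 60S genes and 0.79 for 558 others, and between 1000 and 1500 bases 1.504 for 12 and 0.29 for 868. With length and GC trends removed from every library, the median of the 60S genes was 1.06, 51 of the 52 stayed above 0 and 5 were called higher (Rpl13, Rpl28, Rpl32, Rpl37 and Rpl37rt), against 1.58% of all genes. The part of length in the differences was not tested beyond this.

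**Figure D5:**
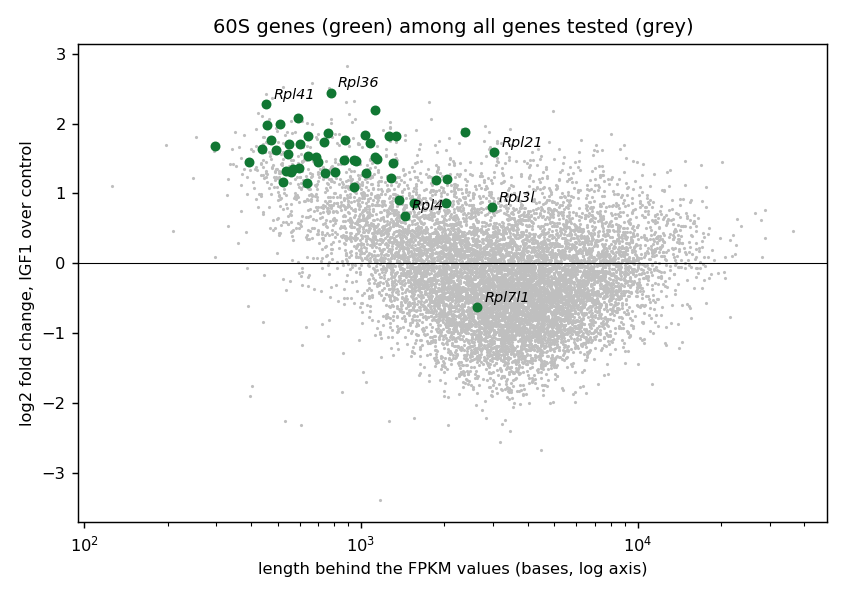
Log2 fold change of FPKM + 1, IGF1 over control, against the gene length behind the FPKM values in bases (log axis), for the 52 tested 60S genes (green) and all 10449 tested genes (grey). Most 60S genes lie at the short end and above 0, short genes of other kinds also lie mostly above 0, and Rpl7l1 and Rpl21 have like lengths on opposite sides of 0.

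The wider ribosome set was uneven. All 34 of the 40S genes lay above without overlap, beside 21.9% of all genes. Their median log2 fold change was 1.64, and 1.10 with length and GC trends removed. Of the 34, 2 were called higher (Rps7 and Rps29), beside 1.98% of all genes. Of 48 genes for the large subunit of the mitochondrial ribosome, 16 (33.3%) lay above and 6 (12.5%) below without overlap, where 21.9% and 37.4% of all genes did. Their median was 0.36, and 0.30 with length and GC trends removed. Of the 48, 1 was called higher (Mrpl52), a share near the 1.98% of all genes. Of 18 other messages known to carry a TOP tract, 7 (38.9%) lay above and 3 (16.7%) below without overlap, beside the same 21.9% and 37.4%. Their median was 0.57, and 0.81 with length and GC trends removed. Of these, Tpt1 had 278, 1244 and 285 FPKM in controls and 1471, 1479 and 1494 FPKM with IGF1, while Npm1 overlapped with 638, 1004 and 633 FPKM in controls and 687 to 717 FPKM with IGF1.

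The factors that build the 60S subunit did not follow its proteins. Of 48 assembly and export genes, 27 lay below and 5 above without overlap, where 37.4% and 21.9% of all genes did. Their median log2 fold change was −0.68. With length and GC trends removed it was −0.41, where the 60S median was 1.06. With all libraries, 4 of the 48 were called lower, beside 4.63% of all genes. Without control replicate 2, 19 were called lower, beside 20.6% of all genes. The 4 were Nmd3, Las1l, Nifk and Ddx56. Nmd3, the adapter that exports the finished subunit from the nucleus, had 89.6, 41.8 and 91.2 FPKM in controls and 21.7, 22.9 and 22.4 FPKM with IGF1 (log2 fold change −1.60 ± 0.31, SE). Las1l, part of the complex that cuts the ribosomal RNA precursor, had 38.9, 20.9 and 40.3 FPKM in controls and 12.1, 12.1 and 11.2 FPKM with IGF1. In both, control replicate 2 again lay between the groups. Eif6, which keeps the new subunit from joining the 40S subunit too early, had 199, 212 and 193 FPKM in controls and 227, 228 and 229.5 FPKM with IGF1, and did not pass.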

How the data were processed

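HSC RNA was sequenced by the authors from poly(A)-selected, strand-marked libraries. The submitters' processing notes name fastp, HISAT2, StringTie and the builds GRCm38 and mm10, while the study's methods name RSEM for quantification, and which of them made the deposited FPKM values was not settled. FPKM are already scaled to library size by the authors, so a gain in reads of some genes leaves fewer reads for the others. The summed FPKM is not fixed by this scaling. It was 466619, 635111 and 466135 in controls and 677826 to 680285 with IGF1. Without the 60S and 40S genes the sum was 425892, 502150 and 425660 in controls and 500638 to 500843 with IGF1. Whole reads could be recovered from the FPKM steps for 14838 of 14838 rows above 0 in at least 2 libraries (tolerance 0.0001), which gave the depths and the voom alternative, where 4 of the 60S genes and 382 of all genes were called higher. Recovered reads are the smallest whole numbers for each gene, so a divisor shared by its reads in all libraries is lost.

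Values were tested as log2(FPKM + 1) with limma 3.58.1 (R 4.3.3; moderated, with variance trend, all 6 libraries, no covariate), for genes reaching 1 FPKM in 3 or more libraries, with Benjamini-Hochberg adjustment over all 10449. A gene was called at fold over 2 and adjusted p under 0.05. Fold changes understate those of low genes. The genes named are those called, the 5 largest and 5 smallest differences, the highest levels, stalk, 5S and catalytic genes, and paralogs with their parents. The members and the lists were chosen with earlier results of these data known. The 40S list left out 11 rows that share the Rps stem but are no ribosomal protein, and the pairs with Rpl32l and Rpl37rt were added, both after seeing the row names. The fit and the read recovery were tested on simulated data. Positions come from GENCODE on GRCm38, and start windows from RefSeq (GRCm38.p6). Intervals cover counting error only.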

Additional observations from a re-analysis of the deposited data

How the results depend on the processing

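The number of 60S genes called higher (3 with all libraries) depended on the processing. It was 0 with no filter on low values, 1 with a pseudocount of 5 or with 75th percentile scaling, 5 with length and GC trends removed, and 49 with library weights, which gave control replicate 2 a weight of 0.014. Among all genes, the share called higher was 0.70% with no filter, 0.63% with a pseudocount of 5 and 2.88% with 75th percentile scaling. That share was 1.58% with length and GC trends removed and 12.2% with library weights. Leaving out single libraries gave 0 to 49 calls, where 49 came without control replicate 2 and 0 without each of the other 5. Of all genes, 12.3% were called higher without control replicate 2 and 0 without each of the other 5. Same-numbered libraries did not deviate together (correlations −0.057, −0.050 and 0.006), and the fit with the replicate block gave 0 calls, as did the replicate block with length and GC trends removed. Neither blocked fit called any gene among all genes tested. The number of 60S genes called lower was 0 in every fit run, beside 4.63% of all genes in limma with all libraries and 20.6% without control replicate 2. The median log2 fold change stayed positive, from 0.84 under quantile normalization to 2.07 without control replicate 2. Scaling to the 75th percentile or to the median ratio moved the median of all genes from −0.18 to 0.04 and 0.01, and quantile normalization to −0.02. Against that median, the 60S genes were higher by 1.68 with no further scaling, by 1.72, 1.71 and 0.86 under these scalings. Under quantile normalization the log2 fold changes of Rpl3, Rpl4 and Rplp0 were −0.020, −0.21 and −0.036. The difference in 60S share was 10.9 percentage points as a ratio to the genes of neither subunit, and 6.16 to 9.34 when single libraries were left out. The Rpl3l to Rpl3 ratio difference (−0.06) was 1.22 with a pseudocount of 0.1 0.032 without control replicate 1, 0.034 without control replicate 3 and −0.26 without control replicate 2, and that of Rpl37rt to Rpl37 (0.09) was −0.0046 with a pseudocount of 5. The causes of these shifts were not tested. Members with few reads (Rpl3l, Rpl39l and Rpl10l) are limited by depth.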
